A study of Homo sapiens with 6 samples.

Results

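The libraries compared here are the 2 of 6 in the series whose titles carry the mark P12, GOLPH3 P12 and Vector P12, and they were set against the other 4 libraries. The pair was chosen by this mark alone and not by any measured value. RNA was sequenced from HCT-116, an established human colon carcinoma cell line, carrying the viral vector PMSCV either with a GOLPH3 insert or empty. The 3 libraries labelled GOLPH3 are marked P8, P12 and P13, and the 3 labelled Vector are marked P11, P12 and P13. The labels do not say what the P number stands for, and the study's methods say only that the cells of each line came from 3 different generations grown in DMEM with fetal bovine serum. The lines were made by viral infection, and whether they are clones or mixed populations is not given in the sources used here. The 2 labels are separate lines, and the 3 libraries of each came from different generations of the same line. No independently infected replicate lines are described. The p-values below therefore measure the spread between these libraries, part of which may be technical, and not that between independently made lines.

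The GOLPH3 transcript did not mark the label. GOLPH3 (ENSG00000113384) had 1272 normalized reads in GOLPH3 P12 and 1630 and 1383 in GOLPH3 P8 and P13, while the libraries labelled Vector had 1968, 1892 and 1472 in P12, P11 and P13. The study reports by western blot that its HCT-116 lines overexpressed GOLPH3 protein, which these RNA values do not measure. The groups are therefore named only by their labels. The recovered reads numbered 15708846 to 21900764 per library. Of 10 colon epithelial line marker genes all 10 were detected, although CEACAM5 and LGALS4 had at most 10 and 5 reads. Leukocyte, fibroblast and endothelial genes were near the floor, with DCN and CD3E at 0 reads everywhere and PTPRC, ERG and EMCN at no more than 1 read, although COL1A1, which epithelial lines can also express, had 466 to 1499 normalized reads. The summed fibroblast, blood and endothelial markers were 653 to 877, 23.1 to 57.6 and 23.7 to 23.9 in the P12 pair against 492 to 1555, 31.1 to 79.8 and 17.5 to 40.8 in the other 4. Part of a list of 8 genes of an embryonic kidney line separated the labels. IRS4, UCHL1 and NEFM had 0 reads in all libraries labelled GOLPH3 and 1006 to 4831, 415 to 1757 and 346 to 612 normalized reads in those labelled Vector, and NEFL had at most 0.825 against 372 to 742. PAX2 did not separate the labels, with 112 to 134 in those labelled GOLPH3 and 88.7 to 148 in those labelled Vector. PAX8 and SIM2 did not either, with 128 to 395 and 510 to 849 in those labelled GOLPH3 against 75.5 to 145 and 242 to 478. The summed level of this list was 772, 1356 and 946 in GOLPH3 P8, P12 and P13, and 2748, 4033 and 8641 in Vector P11, P12 and P13. The label was a term in every comparison across labels, and the P12 difference is also given within each label. In bulk RNA a lower level per cell and fewer cells of a kind cannot be told apart. The libraries labelled GOLPH3, where IRS4 was at 0, give each difference without that marker.

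The integrated stress response is the programme by which cells limit general protein synthesis and raise the translation of the transcription factor ATF4 when amino acids are short, when proteins misfold in the endoplasmic reticulum or when haem or redox balance is disturbed. ATF4, with C/EBP partners such as CEBPB and CEBPG, binds a composite element in the genes for amino acid transporters, amino acid synthesis enzymes and tRNA synthetases. NF-kB drives chemokine and survival genes, and SREBP2 drives the enzymes of cholesterol synthesis when membrane sterol is low.

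The letters of this composite element were looked for after the stress response list was seen to stand farthest from the background. That list and the tRNA synthetase list gather genes of the kinds that ATF4 binds. A high share of matches in them can follow from that choice and is no result of the P12 comparison. The P12 differences of the other genes with a match are not given. RefSeq promoter windows on GRCh38.p14, from 250 bases before to 50 after a start, were searched on both strands for TGATGNAA, which reads TTNCATCA on the opposite strand. Of all 27305 genes with a window 1217 (4.46%) held a match, and of all 35116 windows 1270 (3.62%) did. Among 35 matched genes of the stress and amino acid response list 10 (28.6%) held it, and among 16 matched tRNA synthetase genes 7 (43.8%) did. The following windows are written along the gene's strand with the match in capitals and 10 bases on either side.
CEBPG, chr19:33374061-33374088, plus strand: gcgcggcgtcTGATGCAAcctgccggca
ASNS, chr7:97872459-97872486, minus strand: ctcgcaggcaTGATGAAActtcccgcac
CHAC1, chr15:40953252-40953279, plus strand: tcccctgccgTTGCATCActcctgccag
SLC1A4, chr2:64989382-64989409, plus strand: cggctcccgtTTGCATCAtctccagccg
SLC7A1, chr13:29595664-29595691, minus strand: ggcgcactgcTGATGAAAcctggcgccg
AARS1, chr16:70289676-70289703, minus strand: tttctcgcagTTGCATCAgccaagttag
TARS1, chr5:33440957-33440984, plus strand: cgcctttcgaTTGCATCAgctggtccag
MARS1, chr12:57488054-57488081, plus strand: ccggttccggTTGCATCAgcgagggatt
A match describes letters and not binding, and genes without one may carry the element outside this window. The sterol element TCACNCCAC, whose reverse complement is GTGGNGTGA, was searched the same way for the cholesterol genes. It was held by 379 of the 27305 genes (1.39%) and by 1 of the 19 cholesterol genes with a window, SREBF2, the gene for SREBP2 itself.
SREBF2, chr22:41832962-41832990, plus strand: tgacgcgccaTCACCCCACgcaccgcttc

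Across all genes, the P12 pair did not differ by limma or edgeR from the other 4 libraries beyond their spread after correction for multiple tests. Differences are given on the log2(normalized reads + 1) scale from limma with the label as a term, over the 26536 genes that reached 1 normalized read in 3 or more libraries, and this scale understates the change of low genes. With Benjamini-Hochberg adjustment limma called 0 genes (0%) at an adjusted p under 0.05, edgeR on the recovered reads also called 0 of 18069, and DESeq2 on the recovered reads called 198, with 141 higher and 57 lower in the pair. Before adjustment limma had 1920 genes with a p under 0.05 (7.24%), of which 1067 (4.02%) were higher and 853 (3.21%) lower in the P12 pair. Both P12 libraries lay above all 4 others in 1789 genes (6.74%) and below all 4 in 1620 (6.1%). With the order taken only inside each label, P12 was the highest of its 3 libraries in both labels for 3728 genes (14%) and the lowest in both for 3041 (11.5%). The programmes described next are therefore read by how their members compare with these shares, and no single gene among them passed the correction in this comparison by limma or edgeR. The median difference over all genes was 0.02, so list medians need no shift.

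The difference recurred in the 2 labels, which share no library. GOLPH3 P12 was set against GOLPH3 P8 and P13, and Vector P12 against Vector P11 and P13. Among the 11267 genes with a mean of at least 100 normalized reads, 238 (2.11%) were at least 2-fold above both other libraries within the GOLPH3 label and 151 (1.34%) within the Vector label, and 83 genes were in both sets, which is 34.9% of the first and 55% of the second. At least 2-fold below both others were 317 (2.81%) and 43 (0.382%), with 25 in both, 7.89% and 58.1% of each. No gene of this level was 2-fold above in 1 label and 2-fold below in the other, in either order. Over all 26536 genes, where counting error is larger, 323 were above in both and 227 below in both, while 125 and 102 went in opposite directions. The differences of the 2 labels had a Pearson r of 0.66 across the 11267 genes and 0.26 across all genes. Genes are not independent replicates, and the points within a label share its 3 libraries. When each library was expressed as its deviation from the mean of its label, the 2 P12 libraries had r = 0.66, the 2 P13 libraries 0.65 and GOLPH3 P8 with Vector P11 0.69, while the 6 other pairings lay between -0.51 and -0.12. The most alike pairing was thus of libraries with different marks, and P12 with P12 came next. Deviations within a label sum to 0, which pushes the other pairings below 0.

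**Figure D1:**
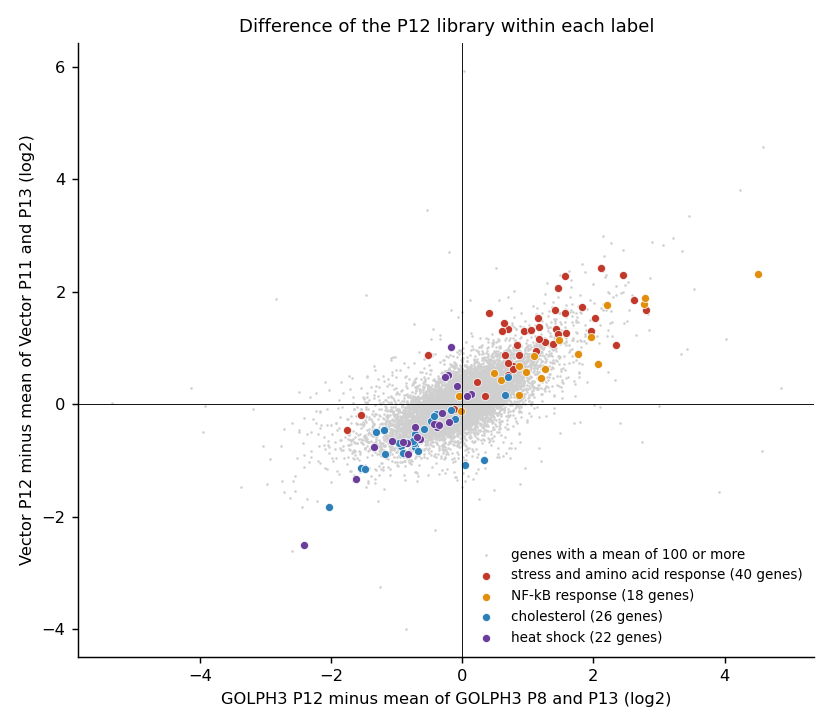
Each point is a gene with a mean of at least 100 normalized reads. The x axis gives the log2 difference of GOLPH3 P12 from the mean of GOLPH3 P8 and P13, and the y axis that of Vector P12 from the mean of Vector P11 and P13. Coloured points are members of 4 lists, and most stress response and NF-kB members lie at the upper right while most cholesterol and heat shock members lie in the lower left, with Pearson r of 0.66 over all 11267 points.

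The integrated stress and amino acid response stood farthest from the background. Of its 44 tested genes 30 were higher and 1 was lower in the P12 pair at an unadjusted limma p under 0.05, against 4.02% and 3.21% of all genes, and the median log2 difference was 1.19. Both P12 libraries lay above all 4 others in 24 of the 44 and below all 4 in 0. The median was 1.16 within the GOLPH3 label and 1.31 within the Vector label, and IRS4 was at 0 throughout the first. DESeq2 called 8 members higher at an adjusted p under 0.05 and 0 lower, against 0.881% and 0.356% of the 16000 genes for which it gave an adjusted p. The count of 30 fell to 9 when the GOLPH3 P12 library was left out and to 10 when the Vector P12 library was left out, each of which leaves 1 library at P12.

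The effectors and feedback genes of the response came first. In what follows a gene's values are normalized reads in GOLPH3 P12 and Vector P12, and then in GOLPH3 P8, GOLPH3 P13, Vector P11 and Vector P13. DDIT3 (ENSG00000175197, chromosome 12, 57516588 to 57521737 in GENCODE 29 on GRCh38), which encodes the proapoptotic factor CHOP, had 1499 and 1119 in the pair and 288, 1033, 194 and 367 in the others. The groups did not overlap, with GOLPH3 P13 closest to the pair, and the log2 difference was 1.76 (SE 0.49, limma adjusted p = 0.446). INHBE (ENSG00000139269, chromosome 12, 57452323 to 57459280), the inhibin beta E subunit, had 51.1 and 97.8 against 1.07, 4.27, 5.48 and 14.6. It did not overlap, with a difference of 3.64 (SE 0.68, limma adjusted p = 0.216), and its lowest value is a single read. TRIB3, a pseudokinase that restrains ATF4, had 8844 and 5131 against 1233, 3343, 539 and 1699, a difference of 2.27. The stress-induced leucine sensor SESN2 had 8005 and 5006 against 696, 2441, 627 and 3072, a difference of 2.23. For CHAC1, which degrades glutathione, the values were 2611 and 1783 against 177, 1267, 93.1 and 1377, a difference of 2.38. All 3 were without overlap, and in each the P8 and P11 libraries were lowest and the P13 libraries lay between. The secreted glycoprotein gene STC2 had 18502 and 6540 against 1463, 4805, 986 and 4261, also without overlap. PPP1R15A, which encodes the phosphatase subunit that reverses the translational block, had 14358 and 4365 against 1598, 4981, 1511 and 2922, where Vector P12 lay below GOLPH3 P13 but above both other libraries of its own label. The transcript of ATF4 itself (ENSG00000128272) did not separate the pair from the other 4 libraries. It had 10966 and 10761 in the pair and 7189, 12291, 6552 and 10232 in the others, so that GOLPH3 P13 was above both, and the difference was 0.31 (SE 0.34, limma adjusted p = 0.936).

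Other members of the list encode transporters and enzymes of amino acid supply, and those named here were picked after their values were seen. SLC7A11 (ENSG00000151012, chromosome 4, 138164097 to 138242349), the cystine carrier, had 5012 and 3680 in the pair and 1617, 1012, 1665 and 1321 in the others. Every other library was below the lower P12 value, with a difference of 1.64 (SE 0.32, limma adjusted p = 0.216). SLC7A1, which imports arginine and lysine, had 11752 and 10028 against 3958, 5162, 3880 and 5831. SLC1A4, a carrier of small neutral amino acids, had 787 and 866 against 169, 290, 150 and 446. Both genes carry the printed element and neither overlapped, with differences of 1.23 and 1.78. SLC3A2, the heavy chain shared by several such carriers, had 24025 and 13012 against 5468, 11676, 3472 and 8460, and did not overlap. Among synthesis enzymes PSAT1, of the serine pathway, had 8178 and 10030 against 3799, 4804, 3778 and 4342, a difference of 1.12. ASNS, the asparagine synthetase, had 627 and 491 against 163, 484, 126 and 225, a difference of 1.35 in which GOLPH3 P13 came within a few reads of Vector P12. CEBPG (ENSG00000153879, chromosome 19, 33373330 to 33382686), the dimer partner of ATF4 whose window is printed above, had 4369 and 4930 against 1455, 1794, 1870 and 2029. Every other library was far below the lower P12 value, with a difference of 1.39 (SE 0.27, limma adjusted p = 0.216). PHGDH, the enzyme that opens the serine pathway, did not separate, with 3876 and 5100 against 1876, 3265, 1373 and 5625. The 1 member that was lower at an unadjusted p under 0.05 was KLHL24, a ubiquitin ligase adaptor, with 157 and 320 against 544, 386, 422 and 316.

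**Figure D2:**
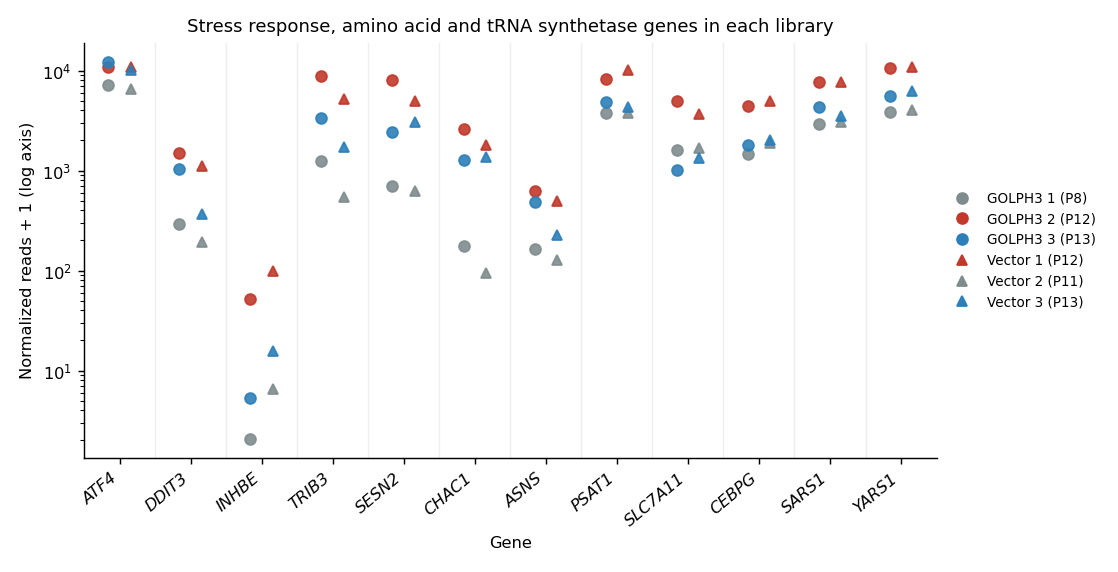
Normalized reads plus 1 on a log axis for 12 genes, 1 point per library, with circles for the label GOLPH3 and triangles for Vector and colours for the P mark. The red P12 points are the highest of their label in every gene shown except ATF4, where GOLPH3 P13 (12291) is above GOLPH3 P12 (10966).

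The cytosolic tRNA synthetase genes, which charge tRNAs with amino acids and many of which ATF4 controls, followed in part. Of 19 tested 7 were higher and 1 was lower at an unadjusted limma p under 0.05, and the median difference was 0.46. SARS1, for serine, had 7618 and 7663 in the pair and 2909, 4324, 3028 and 3548 in the others. YARS1, for tyrosine, had 10674 and 10822 against 3826, 5601, 4068 and 6184. In both genes the P12 values were nearly equal to each other and above every other library, with differences of 1.16 (SE 0.29, limma adjusted p = 0.357) and 1.16 (SE 0.31, limma adjusted p = 0.421). GARS1, TARS1, WARS1, AARS1 and MARS1 were the others that were higher, by 0.82 to 1.09. QARS1, for glutamine, went the other way with 2004 and 1969 against 3553, 3912, 2364 and 3367, below all others and lower by 0.71 on this scale. KARS1 (difference 0.02) and HARS1 (-0.26) did not separate. The 7 genes with the printed element had a median difference of 0.82 with 4 of them higher at an unadjusted p under 0.05, and the 9 with a window but no match had a median of 0.24 with 2 higher and 1 lower. In the stress response list the corresponding figures were 1.41 with 10 of 10 higher and 1.02 with 13 of 25 higher and 1 lower. Genes without a window had a median of 1.04 with 7 of 9 higher in that list, and 0.30 with 1 of 3 higher among the tRNA synthetases. These values describe small sets from lists that gather genes of the kinds ATF4 binds. They were not tested, and no such share is given over all genes with a match.

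Genes of the endoplasmic reticulum branch were divided. Of 31 tested chaperone and unfolded protein response genes 3 were higher and 2 lower at an unadjusted limma p under 0.05, with a median of -0.21. The sensor gene ERN1, which encodes IRE1, had 1823 and 1252 against 668, 752, 570 and 651, and its target XBP1 had 3390 and 4880 against 1694, 1436, 2137 and 2572. Neither overlapped, with differences of 1.20 and 1.09. The main chaperone of the compartment, HSPA5, had 51469 and 45742 against 40759, 34047, 51535 and 24649, so Vector P11 was as high as the pair.

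Chemokine and NF-kB response genes formed the other large group with higher values. Of 28 tested 15 were higher and 0 lower at an unadjusted limma p under 0.05, with a median difference of 0.99, and in 12 of the 28 both P12 libraries lay above all 4 others. The median was 1.15 within the GOLPH3 label and 0.87 within the Vector label. Left without GOLPH3 P12 the count was 5, and without Vector P12 it was 9. DESeq2 called 6 members higher and 0 lower at an adjusted p under 0.05.

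CXCL8 (ENSG00000169429, chromosome 4, 73740506 to 73743716), the neutrophil attractant interleukin 8, had 1842 and 893 in the pair and 205, 351, 240 and 278 in the others. CCL20 (ENSG00000115009, chromosome 2, 227805739 to 227817564), which attracts CCR6-bearing lymphocytes, had 142 and 86.5 against 3.22, 8.54, 6.57 and 10.3. In both the lower P12 value was well above the highest of the rest, with differences of 2.28 (SE 0.36, limma adjusted p = 0.2) and 3.87 (SE 0.62, limma adjusted p = 0.2). CXCL1, CXCL2 and CXCL3, neighbouring and similar genes whose reads may be shared, had differences of at least 2.34 without overlap. For CXCL2 the values were 987 and 236 against 21.5, 82.2, 25.2 and 85.8. TNFAIP3, the inhibitor A20, had 1073 and 916 against 205, 488, 415 and 589, a difference of 1.32. NFKB1, which encodes the p105 precursor and p50 subunit, had 2049 and 1291 against 803, 899, 801 and 862. These 2 genes also stood without overlap. The inhibitor NFKBIA did overlap, with 1918 and 1122 against 707, 1357, 549 and 1038 (difference 0.77, limma adjusted p = 0.721). The mitochondrial superoxide dismutase SOD2, another target, had 1762 and 1967 against 1787, 1771, 2262 and 2033, a difference of -0.07. IL6 and IL1B were at or below 4.95 normalized reads in every library.

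Cholesterol genes had the largest share of members lower at an unadjusted limma p under 0.05 among the lists. Of 26 tested 10 were lower and 0 higher at an unadjusted limma p under 0.05, with a median difference of -0.73, and both P12 libraries lay below all 4 others in 9. The median was -0.73 within the GOLPH3 label and -0.67 within the Vector label. Without GOLPH3 P12 the count of lower members was 2, and without Vector P12 it was 5. DESeq2 called 3 members lower and 0 higher at an adjusted p under 0.05. INSIG1 (ENSG00000186480, chromosome 7, 155297776 to 155310235), the sterol sensor that retains SREBPs and is itself their target, had 760 and 730 in the pair and 2968, 3266, 2669 and 2531 in the others. The P12 values were within 30 reads of each other and far below the rest, with a difference of -1.93 (SE 0.27, limma adjusted p = 0.2). SQLE, the squalene epoxidase, was below all others in both P12 libraries, with 1650 normalized reads as the lowest of the rest and a difference of -1.34 (SE 0.28, limma adjusted p = 0.237). IDI1, the isomerase of isopentenyl diphosphate, had 795 and 954 against 2580, 1905, 2611 and 1715. It did not overlap, with a difference of -1.31. HMGCS1, an early synthase of the pathway, had 2111 and 1193 against 3771, 3218, 2381 and 1728, where GOLPH3 P12 was above Vector P13. The transcript of SREBF2, with the sterol element printed above, had 6294 and 3787 against 6011, 8338, 3040 and 5356, a difference of -0.13. Fatty acid synthesis genes leaned the same way, with 3 of 17 lower, 0 higher and a median of -0.47. TMEM97, a sterol-regulated membrane protein, had 364 and 865 against 1289, 1023, 1545 and 1489 and did not overlap. SCD, the stearoyl-CoA desaturase, had 19298 and 14587 against 47626, 31317, 30402 and 22802 and did not overlap, while FASN had 28605 and 11648 against 48432, 56873, 13230 and 31532 and did.

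**Figure D3:**
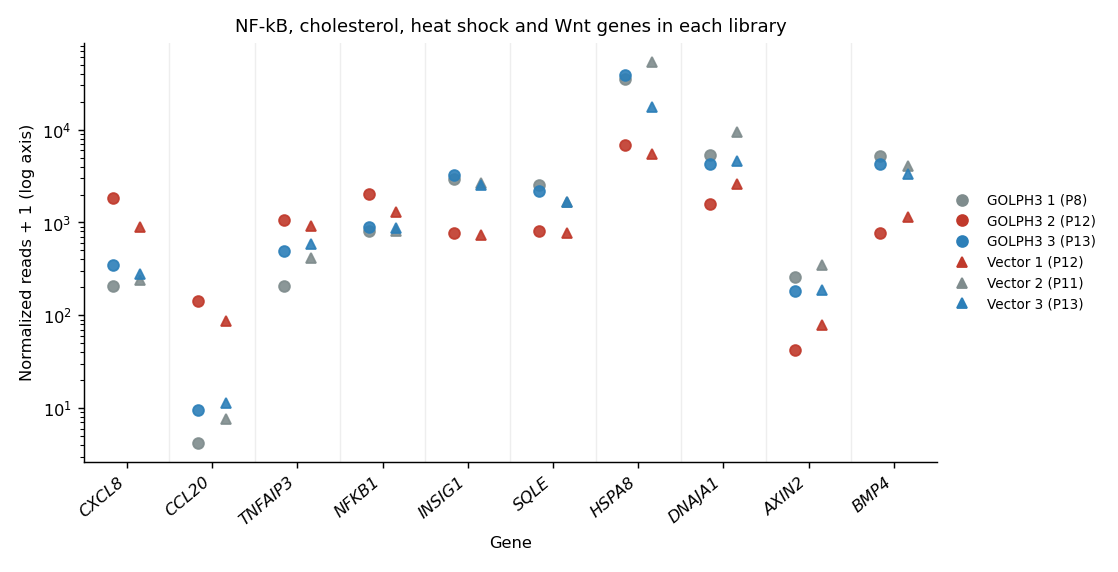
Normalized reads plus 1 on a log axis for 10 genes of 4 lists, 1 point per library, with circles for the label GOLPH3, triangles for Vector and colours for the P mark. The red P12 points are the highest of their label in CXCL8, CCL20, TNFAIP3 and NFKB1 and the lowest of their label in the other 6 genes.

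Cytosolic heat shock genes were lower where they differed. Of 23 tested 6 were lower and 0 higher at an unadjusted limma p under 0.05, the median was -0.39, and 7 lay below all others in both P12 libraries. HSPA8 (ENSG00000109971, chromosome 11, 123057489 to 123063230), the constitutive HSC70 chaperone, had 6889 and 5454 in the pair and 34853, 38727, 53930 and 17592 in the others. The highest P12 value was under the lowest of the rest, and the difference of -2.46 (SE 0.43, limma adjusted p = 0.216) was nearly the same in the labels, -2.41 for GOLPH3 and -2.50 for Vector. Its many processed pseudogenes may take or give some of these reads. DNAJA1, a J-domain partner of HSC70, had 1565 and 2610 against 5346, 4296, 9348 and 4554. HSPE1, the mitochondrial HSP10, had 820 and 764 against 1242, 1719, 1571 and 1271. Both were without overlap. HSP90AA1, the inducible cytosolic HSP90, had 20838 and 33917 against 71194, 39328, 88332 and 37657, a difference of -1.06.

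Hypoxia response and glycolysis genes leaned lower, with 8 of 38 lower and 1 higher at an unadjusted limma p under 0.05, a median of -0.41, and 10 below all others in both P12 libraries. PFKFB4, which controls the glycolytic activator fructose 2,6-bisphosphate, had 154 and 161 in the pair and 662, 770, 331 and 320 in the others. ALDOC, an aldolase, had 279 and 296 against 1007, 1880, 559 and 500. In both the P12 values were nearly equal and below all others, with differences of -1.61 (SE 0.35, limma adjusted p = 0.286) and -1.57 (SE 0.40, limma adjusted p = 0.362). The shift was larger within the GOLPH3 label, where the list median was -0.60, than within the Vector label, where it was -0.08, and this difference between labels was not tested for the list. VEGFA, the vascular growth factor and also an ATF4 target, went against the list with 4869 and 2779 against 1335, 2839, 1134 and 1975 (difference 1.11). CA9, the carbonic anhydrase used as a hypoxia marker, had 4.95 and 4.12 against 44.0, 80.1, 3.29 and 1.72, and so was low in every library labelled Vector.

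Wnt/beta-catenin targets were lower in 7 of 24 and higher in 1 at an unadjusted limma p under 0.05, with a median of -0.21. Left without GOLPH3 P12, the count of lower members was 3. AXIN2 (ENSG00000168646), the negative feedback scaffold that is the usual readout of the pathway, had 41.2 and 78.2 in the pair and 260, 183, 346 and 185 in the others. BMP4 (ENSG00000125378), a secreted morphogen, had 763 and 1151 against 5145, 4313, 4039 and 3307. NKD1, another feedback inhibitor, had 99.0 and 198 against 353, 295, 462 and 440. None of these 3 overlapped, and the differences were -2.03 (SE 0.41), -2.15 (SE 0.31) and -1.44 (SE 0.32) with limma adjusted p-values of 0.221, 0.2 and 0.304. The receptor ligases ZNRF3 and RNF43, which remove the Wnt receptor and are targets as well, had differences of -0.78 and -0.90. The 1 higher member was MYC, which many other pathways also drive, with 14861 and 7611 against 5775, 7724, 4008 and 5561, where Vector P12 was just below GOLPH3 P13. LGR5, the stem cell marker and a classical target, leaned against the list with 4.12 and 99.8 in the pair and 2.15, 1.07, 38.3 and 68.7 in the others. Each P12 library was the highest of its label, and the difference of 0.98 did not reach an unadjusted limma p under 0.05. LEF1 and APCDD1 had 0 reads in every library labelled GOLPH3, so for them the list speaks only of the Vector label.

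Immediate early genes, which growth factors and stress induce within minutes, were split. Of 33 tested 9 were higher and 5 lower at an unadjusted limma p under 0.05. The orphan nuclear receptors NR4A1 and NR4A2 were lower without overlap. NR4A2 had 438 and 364 in the pair and 3936, 1452, 1486 and 1119 in the others, and NR4A1 had 981 and 997 against 5150, 5270, 2056 and 2245. The differences were -2.13 (SE 0.40, limma adjusted p = 0.216) and -1.76 (SE 0.33, limma adjusted p = 0.216). FOS had 4477 and 586 against 10206, 11179, 4097 and 7533, so that each P12 library was the lowest of its label although GOLPH3 P12 was above Vector P11. FOSL1 was on the other side, with 10832 and 3600 against 1730, 6136, 1231 and 1363, as were KLF6 (difference 1.31), KLF10 (1.15) and MAFF (1.61). EGR1 was lower than all others in both P12 libraries by a margin inside the spread, with 5320 and 4876 against 6148, 7799, 5686 and 11023 (difference -0.54, limma adjusted p = 0.826).

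ERK pathway feedback genes and YAP/TAZ targets had higher members and no lower ones at an unadjusted limma p under 0.05, 6 of 20 and 7 of 26. DUSP5 (ENSG00000138166), the nuclear phosphatase of ERK, had 34221 and 16231 in the pair and 3625, 10906, 1812 and 3228 in the others, above all with a difference of 2.60 (SE 0.44, limma adjusted p = 0.216). PHLDA1, an ERK-induced gene, had 17458 and 13929 against 8379, 8804, 6275 and 4389. The feedback genes DUSP6 (difference 0.49) and SPRY2 (-0.04) did not separate at this test. AXL (ENSG00000167601), a receptor kinase, had 7353 and 1663 against 776, 2209, 347 and 421, so Vector P12 was below GOLPH3 P13 but above its own label. F3 (ENSG00000117525), tissue factor, had 6308 and 5062 against 1137, 2909, 1304 and 1316 and did not overlap. The classical YAP targets CCN1 and CCN2 had differences of 0.82 (limma adjusted p = 0.759) and 1.18 (limma adjusted p = 0.597) and overlapped.

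Metallothioneins, which bind zinc and other metals, were among the higher genes. Of 8 tested genes in the metallothionein and zinc list 4 were higher and 1 lower at an unadjusted limma p under 0.05. MT2A had 26592 and 13784 in the pair and 9373, 12501, 2393 and 4029 in the others. MT1E had 8361 and 4408 against 3245, 3341, 2090 and 1594. MT1X had 509 and 338 against 176, 341, 243 and 187 and overlapped. MT2A and MT1E did not, and their differences were 1.72 (SE 0.35) and 1.31 (SE 0.28) with limma adjusted p-values of 0.221 and 0.256, although reads may be shared between these close copies. The zinc exporter SLC30A1 was higher with 1325 and 1312 against 835, 661, 865 and 910, and the zinc importer SLC39A10 was lower with 354 and 739 against 1457, 958, 2149 and 928.

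The list of abundant long non-coding RNAs had members that were higher and none that were lower. Of 24 tested 9 were higher and 0 lower at an unadjusted limma p under 0.05, and 11 lay above all others in both P12 libraries. EPB41L4A-AS1 had 1513 and 1152 in the pair and 409, 454, 276 and 499 in the others. GAS5, whose turnover depends on ongoing translation, had 12759 and 11313 against 5000, 6689, 4920 and 4899. SNHG8 had 2088 and 1341 against 572, 1003, 509 and 654. The 3 genes did not overlap, and the differences were 1.72, 1.17 and 1.34. SNHG1, SNHG5, SNHG15, SNHG29 and ZFAS1, which like GAS5 host small nucleolar RNAs, had differences from 0.80 to 1.36 without overlap, and like the 3 before them were picked from the list after their values were seen. NEAT1, the scaffold of paraspeckles, had 10861 and 7300 against 7137, 5365, 5320 and 5736, a difference of 0.61 that did not reach an unadjusted limma p under 0.05. MALAT1, a nuclear RNA, had 7770 and 4735 against 6767, 7232, 5143 and 2945, a difference of 0.22. For the antisense-named genes the counting strand is not stated, so reads of an overlapping gene cannot be told apart.

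Autophagy, the subject of the study, was followed through the ATG8 family and the cargo receptors. Of 24 such genes 6 were higher and 1 lower at an unadjusted limma p under 0.05, with a median of 0.28. MAP1LC3B (ENSG00000140941, chromosome 16, 87383995 to 87404779), which encodes LC3B and is an ATF4 and CHOP target, had 12115 and 11020 in the pair and 2437, 3772, 2668 and 2362 in the others. The P12 values were close to each other and far above every other library, with a difference of 2.07 (SE 0.30, limma adjusted p = 0.2) and 2.13 within the Vector label alone. MAP1LC3B2, a near-identical copy, had 747 and 281 against 91.2, 252, 98.6 and 187, and its reads may come from MAP1LC3B. SQSTM1, the receptor p62, had 11033 and 4923 against 4879, 8205, 1939 and 2952 and overlapped. OPTN and CALCOCO2, receptors of mitophagy and xenophagy, were above all others by 0.91 and 0.87. Of 35 genes of autophagy initiation and conjugation 3 were higher and 0 lower, among them ATG12 (1.29) with 4483 and 4703 against 1866, 2066, 2411 and 1334, and WDR45 (0.97), while ULK1 (-0.03) and WIPI1 (-0.06) did not separate. Of 55 lysosomal genes 1 was higher, the cholesterol exporter NPC1 (0.80), and 1 lower, the proton pump subunit ATP6V0D1 (-0.80), shares under the background. CTSD (0.38) and LAMP1 (0.16) did not separate.

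Keratin genes were divided. Of 17 tested 6 were higher and 2 lower at an unadjusted limma p under 0.05, and 0 lay above all 4 others in both P12 libraries and the levels differed between labels. Inside the labels P12 was highest in both for 4 and lowest in both for 3, orders found in 14% and 11.5% of all genes tested. KRT80 had 7600 and 2309 in the pair and 911, 3162, 284 and 480 in the others (difference 2.40), and KRT7 had 2060 and 332 against 144, 883, 37.2 and 142 (2.35). KRT8, the keratin of simple epithelia, had 25226 and 13626 against 42608, 75110, 19434 and 23728, a difference of -0.91, whereas its partner KRT18 (-0.29) did not separate. The p53 target and BCL2 family lists had 5 of 30 and 3 of 18 higher, with 2 and 1 lower. PMAIP1, the proapoptotic NOXA, had 8877 and 15258 against 2289, 3056, 5735 and 6904, and the death receptor gene TNFRSF10B had 13220 and 7165 against 3649, 6363, 2840 and 3200. Neither overlapped, with differences of 1.51 and 1.35, and both are also ATF4 or CHOP targets. The part of these regulators in the levels of both genes, and of VEGFA and MAP1LC3B, was not tested. BIK, another proapoptotic member, had 1140 and 491 against 315, 725, 208 and 279 and overlapped. The survival genes MCL1 (0.47) and BCL2L1 (0.75) did not reach an unadjusted limma p under 0.05. Of the p53 targets, CDKN1A (0.81) was higher at an unadjusted limma p under 0.05 and overlapped, with 13132 and 6688 against 5802, 9892, 3029 and 4642. MDM2 (0.11) did not separate. Of 27 NRF2 pathway genes 2 were higher and 4 lower, and NQO1 (-0.34) and HMOX1 (0.27) did not separate. AKR1C3, an aldo-keto reductase, was lower with 4.12 and 2.06 against 19.3, 20.3, 14.2 and 10.3, all of them low.

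**Figure D4:**
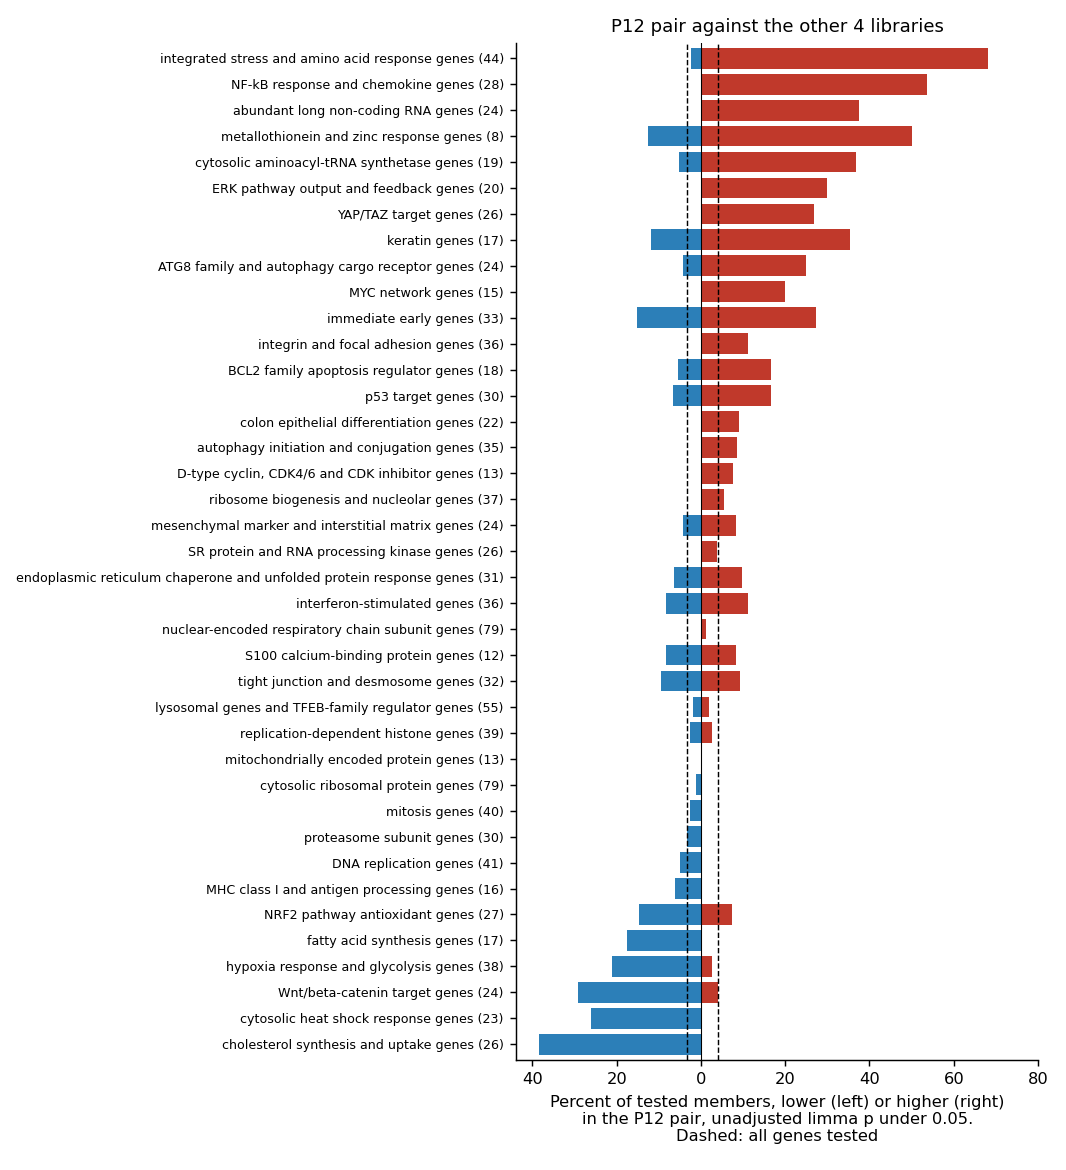
Bars give the percent of the tested members of each list, whose number stands in brackets, that were higher (red, right) or lower (blue, left) in the P12 pair at an unadjusted limma p under 0.05. Dashed lines mark the shares over all genes tested, 4.02% higher and 3.21% lower. The stress response, NF-kB and metallothionein lists reach farthest to the right and the cholesterol, heat shock and Wnt lists farthest to the left.

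In the comparison with all 4 other libraries the growth machinery and the respiratory chain were near or under the background share. Of 79 cytosolic ribosomal protein genes 0 were higher and 1 was lower at an unadjusted limma p under 0.05, of 37 ribosome biogenesis genes 2 and 0, of 41 DNA replication genes 0 and 2, of 40 mitosis genes 0 and 1, and of 79 nuclear-encoded respiratory chain genes 1 and 0. Medians of these 5 lists lay between -0.09 and 0.05. The 1 lower ribosomal gene was RPL36AL (-1.02), while RPL15 (-0.59), RPL10 (0.29) and RPL10A (0.43) did not reach the threshold. RRP12 (1.06) and DKC1 (0.67), of ribosome assembly, were higher, and NPM1 (0.05) and NCL (0.10) did not separate. ORC1 (-0.88) and GINS1 (-0.67), of replication, and KIF20A (-1.04), a kinesin of cytokinesis, were lower. MKI67 (-0.29), PCNA (-0.28), MCM2 (-0.40), CCNB1 (-0.13), UBE2C (0.63) and CCND1 (0.12), genes of cycling cells, did not reach the threshold, nor did the respiratory chain genes NDUFA1 (-0.10), NDUFA9 (-0.64) and NDUFA10 (0.13), and ATP5MGL (1.63) was at most 4.95 normalized reads. Of 30 proteasome genes 0 were higher and 1 lower, PSMD3 (-1.05), with PSMA1 (-0.30), PSMD11 (-0.10) and PSMB1 (-0.39) not past the threshold. Of 26 SR protein and RNA processing kinase genes 1 was higher, CIRBP (1.05), and 0 lower, with SRSF1 (-0.18), CLK1 (-0.03) and RBM39 (0.62) not past it.

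These lists did differ between the P12 pair and single pairs. Against P8 and P11, in the comparison with pooled spread described further on, 30 of 79 ribosomal protein genes were called higher and 6 lower, 17 of 78 respiratory chain genes higher and 3 lower, and 14 of 40 mitosis genes lower and 3 higher, where 10.6% of all genes were called higher and 7.55% lower. Against P13 it was 1 ribosomal protein gene higher and 9 lower, 1 respiratory chain gene higher and 14 of 78 lower, and 4 mitosis genes higher and 1 lower, where 5.9% of all genes were called higher and 6.47% lower. The ribosomal and respiratory chain calls thus leaned to opposite sides in the 2 comparisons.

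The remaining lists were small, divided or near the background. Over all genes 4.02% were higher and 3.21% lower at the unadjusted limma p under 0.05 used here, 7.24% together. The histone (5.13%), MHC (6.25%), cyclin (7.69%) and colon (9.09%) lists had shares near this. Among 36 interferon-stimulated genes 4 were higher and 3 lower, with IFIT2 (1.26) and RSAD2 (1.42) higher and ISG15 (1.01) and IFIT1 (0.34) not past the threshold. Of 16 MHC class I and antigen processing genes 0 were higher and 1 lower, TAPBPL (-1.51), with HLA-B (-0.35) and HLA-E (-1.34) not past it. Tight junction and desmosome genes had 3 higher and 3 lower of 32. CLDN2, a claudin of leaky epithelia, had 10.7 and 0 against 55.8, 33.1, 30.7 and 12.9, and TJP3, a junction scaffold, had 367 and 163 against 1267, 1819, 199 and 326. CDH1 (0.36) and CLDN1 (1.52) did not reach the threshold. Mesenchymal genes had 2 and 1 of 24, where VIM (1.40) and SNAI2 (2.59) were higher, S100A4 (-0.92) was lower and FN1 (0.28) did not separate. VIM had 41.2 and 3407 in the pair and 5.37, 11.7, 1653 and 3194 in the others, and so was low throughout the GOLPH3 label. Its difference was 2.23 within the GOLPH3 label and 0.57 within the Vector label. For SNAI2 these were 4.02 and 1.16, and both genes overlapped between the groups. Of 36 integrin genes 4 were higher and 0 lower, among them ITGA6 (0.93) and ITGA3 (0.91), while ITGB1 (0.40) did not reach the threshold. The 12 tested S100 genes had 1 and 1, with S100A16 (1.18) higher, S100A4 lower, and S100A1 (0.72) and S100A10 (0.46) not past the threshold. Of 15 MYC network genes 3 were higher and 0 lower. ARRDC4, a glucose-sensing arrestin target of this network, had 2005 and 3081 against 276, 1094, 422 and 857, and MXD1, a MAX partner, had 1530 and 1905 against 369, 706, 1053 and 720, both without overlap. Of 13 D-type cyclin, CDK4/6 and CDK inhibitor genes 1 was higher, CDKN1A, and 0 lower, with CDKN2B (0.72) not past the threshold. Of 39 histone genes H2AC6 (0.84) was higher and H3C1 (-2.32), at most 7.51 normalized reads, was lower. Of 22 colon differentiation genes 2 were higher, KLF5 (1.17) and KLF4 (0.79), and 0 lower, with CDX2 (-0.08) not separating.

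The mitochondrial genome's share of reads moved with neither mark nor label alone. It was 4.41% and 7.08% in GOLPH3 P12 and Vector P12, and 9.97%, 9.75%, 9.88% and 4.71% in GOLPH3 P8, GOLPH3 P13, Vector P11 and Vector P13. The mean was 5.74% in the pair and 8.58% in the rest, and moving the P12 mark within the labels in every possible way (exact permutation test, two-sided) gave p = 0.444, where 9 arrangements cannot go below 0.111. All 13 mitochondrially encoded protein genes had a negative difference, from -0.95 for MT-ND6 to -0.36 for MT-CO1 with MT-ND1 (-0.54) and MT-ATP8 (-0.63) between, with 0 at an unadjusted limma p under 0.05. The list median was -1.13 within the GOLPH3 label and -0.10 within the Vector label. The part of this share in the results above was not tested beyond rescaling to equal totals without these genes, under which the counts of higher stress response, higher NF-kB and lower cholesterol members were 30, 14 and 11.

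By size alone, the genes at the ends included members of the lists above. The rule for naming them asked for an adjusted p under 0.05, which 0 genes reached, so the 10 highest and 10 lowest protein-coding genes were taken instead from the 653 (363 higher and 290 lower) with a mean of at least 100, no overlap and an unadjusted limma p under 0.05, a choice made after the values were seen. UPP1 (ENSG00000183696, chromosome 7, 48088628 to 48108733), the uridine phosphorylase, had 34002 and 9445 in the pair and 874, 3703, 437 and 1025 in the others, a difference of 4.03 (SE 0.54, limma adjusted p = 0.2). SPRR2D (ENSG00000163216), a cornified envelope protein from a cluster of similar genes, had 585 and 706 against 7.51, 68.3, 21.9 and 36.9, a difference of 4.59 (SE 0.71, limma adjusted p = 0.2). LAMB3, a chain of laminin 332, had 34428 and 8668 against 1694, 6673, 1010 and 1696 (3.04). HKDC1, a hexokinase, had 692 and 192 against 126, 192, 16.4 and 32.6, where Vector P12 barely cleared GOLPH3 P13 (2.57). The others were CXCL2 and DUSP5 from above, BEST1 (3.40), an anion channel, LURAP1L (2.95), IL20RB (2.89), a cytokine receptor chain, and DHRS2 (2.79), a short-chain dehydrogenase. The lowest was U2AF1L5 (ENSG00000275895), with 139 and 95.7 against 589, 1202, 333 and 1039 and a difference of -2.60, but it is a near-identical copy of the splicing factor gene U2AF1 and its reads cannot be assigned with certainty. After it came HSPA8, BMP4, AXIN2 and NR4A2 from above with PPFIA4 (-2.41), MAP1A (-2.20), GRHL3 (-2.14), IGSF9 (-2.06) and WNT16 (-1.97). GRHL3, an epithelial transcription factor, had 52.0 and 37.1 against 370, 326, 159 and 77.2, and WNT16, a Wnt ligand, had 294 and 410 against 2336, 1341, 1734 and 640.

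Set only against the P13 pair, which has the same 2 labels, P12 gave calls that passed the correction. With 4 libraries and 1 residual degree of freedom limma called 1367 of 23187 genes higher (5.9%) and 1501 lower (6.47%) at an adjusted p under 0.05. These calls rest on a spread that limma drew mostly from all genes together, with a prior of 35.87 degrees of freedom. Of 43 tested stress response genes 27 rose and 1 fell against P13, with a median of 0.85, and of 28 NF-kB genes 13 rose and 0 fell, with a median of 0.74. Of 26 cholesterol genes 20 fell and 0 rose, with a median of -0.87. INSIG1 had a difference of -1.95 (limma adjusted p = 7.36e-09), SLC7A11 of 1.89 (2.44e-08) and CXCL8 of 2.03 (1.68e-08). Of the 19 tRNA synthetase genes 11 rose and 1 fell, of 38 hypoxia genes 1 rose and 13 fell, and of 22 heat shock genes 0 rose and 5 fell. ATF4 (-0.05) showed no call.

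Against the P8 and P11 libraries, which differ in their mark between the labels, the same fit called 2485 of 23390 genes higher (10.6%) and 1765 lower (7.55%). Here limma's prior was infinite, so every gene was given the pooled spread for its level and no single p is printed. Of 44 stress response genes 37 were called higher and 2 lower, with a median of 1.59, and of 27 NF-kB genes 20 and 0, with a median of 1.74. The cholesterol genes were less one-sided, with 2 of 26 higher, 12 lower and a median of -0.34. Heat shock genes were lower in 13 of 23 and higher in 2, with a median of -0.71. The 2 comparisons share the P12 libraries, so their values are set side by side and do not check each other. TRIB3 differed by 1.50 from the P13 pair and by 3.04 from P8 and P11, CHAC1 by 0.71 and 4.06, and ATF4 by -0.05 and 0.66, of which the second was called higher at a limma adjusted p under 0.05. INSIG1 differed by -1.95 and -1.92 and MAP1LC3B by 1.95 and 2.18, almost alike in size. DHCR7, MVD and LSS, enzymes of cholesterol synthesis, differed by -1.28, -1.53 and -1.62 from P13 and by -0.39, -0.23 and -0.02 from P8 and P11.

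**Figure D5:**
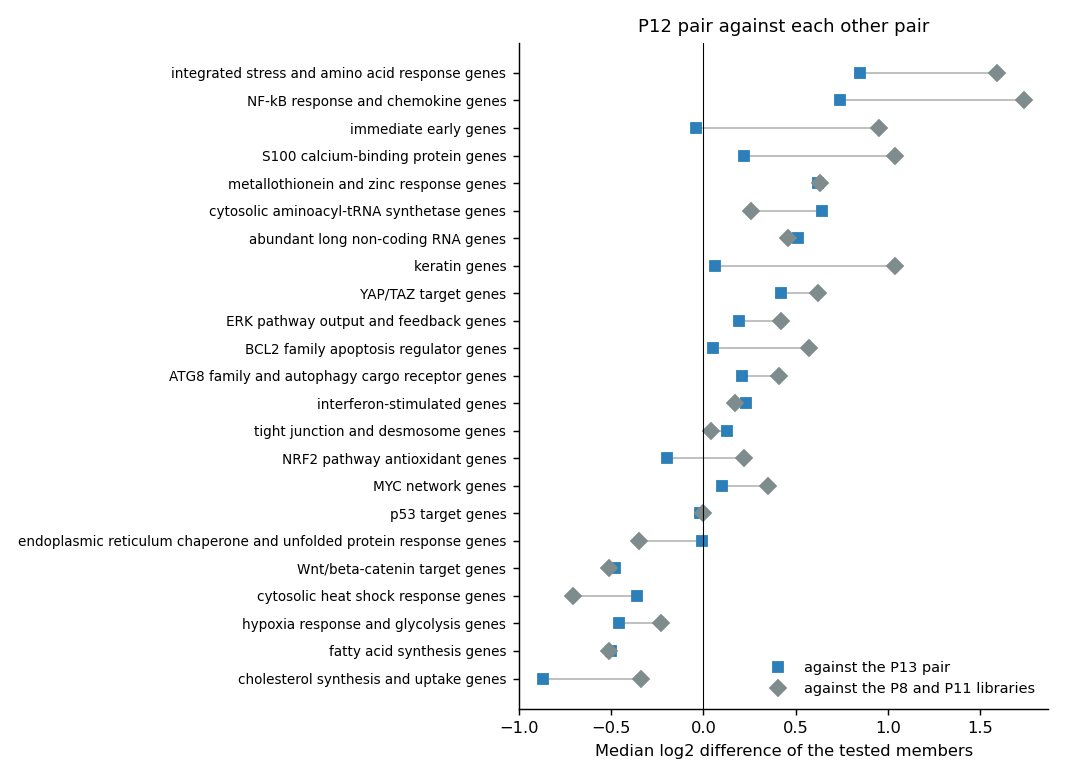
Median log2 difference of the tested members of each list between the P12 pair and the P13 pair (blue squares) and between the P12 pair and the P8 and P11 libraries (grey diamonds), for the lists whose share at an unadjusted limma p under 0.05 was at least 2 times the 7.24% of all genes. The stress response list lies at 0.85 and 1.59, the NF-kB list at 0.74 and 1.74 and the cholesterol list at -0.87 and -0.34.

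The order of the 3 libraries within a label showed the same contrast between lists. In 27 of the 44 stress response genes (61.4%) the P8 or P11 library was lowest, P13 was between and P12 was highest in both labels, an order found in 5.05% of all genes tested, and in 18 of 28 NF-kB genes (64.3%) it was the same. The opposite order, with P12 lowest and P13 between, held in 4.67% of all genes and in 6 of 26 cholesterol genes (23.1%) and 5 of 23 heat shock genes (21.7%). In the hypoxia list it held in 0 of 38. The order of the marks P8, P11, P12 and P13 is thus not the order of these levels.

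Whether the P12 difference depended on the label was tested by an interaction term with 2 residual degrees of freedom. limma called 0 of 26536 genes at an adjusted p under 0.05, and 297 (1.12%) had an unadjusted p under 0.05, with no other tool run for this term. The differences within the GOLPH3 and the Vector label were 1.46 and 2.06 for DDIT3, 1.97 and 1.31 for SLC7A11, and 2.77 and 1.79 for CXCL8. For INSIG1 they were -2.03 and -1.83. FOS was among the genes past the unadjusted threshold, with -1.25 and -3.24. A term that does not pass in 6 libraries does not show that the labels were alike.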

How the data were processed

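RNA-seq values of 6 HCT-116 libraries were analysed. Per the labels the deposited signal is 1 value per gene and library. The submitters' processing notes name fastp 0.20.0, HISAT2 2.1.0, featureCounts 1.6.1, Cufflinks, DESeq2 and GRCh38, with no role or order, and strand handling is not given in the sources used here. In every library 100.00% of nonzero values were whole multiples of a step of 0.8246 to 1.0955 (tolerance 0.1), so they were taken as read counts the authors divided by a size factor, without length correction, and are called normalized reads. Counting limits of 3 reads cover counting error only. Of 60590 table rows 44 repeated an identifier and were added to it. Of 60546 identifiers 58367 (96.4%) were in GENCODE 29, which gave coordinates and names, and 3 listed genes were not matched. There were 0 columns of other samples.

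limma 3.58.1 in R 4.3.3, on log2(value + 1) with a mean-dependent prior and Benjamini-Hochberg adjustment, was used because the values are normalized. Terms were the P12 mark and the label, with 3 residual degrees of freedom. Tests were two-sided. edgeR 4.0.16 and DESeq2 1.42.0 on recovered reads, other scalings, filters, sample sets and each library left out were alternatives. On data simulated for this comparison with 200 genes changed by 2 on the log2 scale, limma recovered 118 with 7 false calls over 27334 genes, edgeR 130 with 5 over 17819 and DESeq2 162 with 24 over 29630. For P12 against P13 limma recovered 80 with 5 false calls over 24217 genes, and against P8 and P11 78 with 3 over 25847. The simulated libraries shared a common mean per gene and a common dispersion for all genes, and only genes with many expected reads were changed. They held no likeness between pairs of libraries such as that seen in the data. Their false calls therefore do not measure those of the real comparisons.

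The comparison, its gene lists and their order were chosen with earlier results of these data known. Genes named are the 10 highest and lowest by the rule in the text, and from each list the first 2 as written and the 2 with the smallest p, apart from marker lists of other cell types, given by sums, and results not reported here. Further members, named to show roles or exceptions, were picked after their values were seen. Each list was described by counts and its median, and no set test was run. The interferon, junction, S100, MYC, histone and other smaller lists are given by counts.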

Additional observations from a re-analysis of the deposited data

Results flagged for a closer look

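In 4 of the genes named by rule, the P12 library was the highest of its label in 1 label and the lowest in the other. For CA9 the difference was -3.34 within the GOLPH3 label and 0.58 within the Vector label, where at most 4.12 normalized reads were found, and the interaction was -3.93 on the log2 scale with an unadjusted limma p under 0.05, which does not pass the correction. MT-CO1, a mitochondrially encoded subunit of cytochrome c oxidase, had -1.06 and 0.35 within the labels, an interaction of -1.41. For WIPI1, an autophagosome protein, the values were -0.35 and 0.22 with an interaction of -0.57. LAMP1, the lysosomal membrane protein, had -0.07 and 0.40 with an interaction of -0.47. The last 3 interactions did not reach an unadjusted limma p under 0.05, and limma called 0 of 26536 genes for this term at an adjusted p under 0.05.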

How the results depend on the processing

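With the P12 mark and label as terms limma called 0 genes at an adjusted p under 0.05, as it did after quantile normalization, equal totals without mitochondrial genes, a pseudocount of 0.1, no filter, a minimum of 10 in every library and no label term, and as edgeR did. DESeq2 called 198, the comparison with the P13 pair 2868, that with P8 and P11 4250, and a term for the P13 pair, added after the data were seen, 1073. Left without 1 library each the count was 0 to 23, the 23 without GOLPH3 P13. Genes at an unadjusted p under 0.05 were 1920, and 1232 at a minimum of 10, 1227 without the label, 5750 against P13, 6670 against P8 and P11, 4604 with the P13 term and 443 to 2514 without 1 library. With a library of the pair removed, the lone P12 library is assumed to vary like the others. Higher stress response members were 30, and 9 to 35 without 1 library. For higher NF-kB members these were 15 and 5 to 18, for lower cholesterol members 10 and 2 to 15, and for lower Wnt members 7 and 3 to 10. Lower cholesterol members were 22 against P13 and 17 with the P13 term.

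The fit with a replicate block called 3843 genes at an adjusted p and 6888 at an unadjusted p. The replicate numbers do not pair the libraries, since same-numbered libraries had deviation correlations of -0.51, -0.29 and 0.65. CTSD, 0.38 with all libraries, was -0.60 against P13. NDUFA1, -0.10 with all libraries, was 0.86 with the replicate block and 0.86 against P8 and P11. The cause was not tested. Of the other values of named genes 2492 kept their side of the threshold and 476 newly passed it, and 707 list medians moved by less than the spread between libraries and 84 by more.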
